A study of Homo sapiens with 2 samples.

Results

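Of 1071 CAL51 barcodes with at least 5000 unique molecular identifiers (UMIs, 1 per captured RNA molecule), the 161 barcodes lowest in a score of cycling genes were compared with the other 910. The score was the share of a barcode's UMIs that fell on 10 genes, MKI67, TOP2A, CDK1, CCNB1, CENPF, TYMS, RRM2, PCNA, MCM5 and MCM6, and the lowest 15% were taken. They are referred to here as the low-score cells. The library held 1377 CAL51 barcodes, of 1683 in the whole data set. Of these, 297 had fewer than 5000 UMIs, and 9 of the 1080 deeper ones were left out because the same barcode sequence also occurred in the second library.

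CAL51 and MDAMB468 are human triple-negative breast cancer cell lines, which lack the estrogen, progesterone and HER2 receptors targeted in other breast cancers. The labels give no treatment, no selection and no synchronisation for CAL51. Both were profiled by Drop-seq, in which a cell is lysed in an oil droplet with a bead that carries a cell barcode, and the polyadenylated RNA is counted at its 3′ end. Each line was a single library, so the cells of CAL51 share 1 preparation, no comparison below has replicates, no test was run, and every interval is a 95% interval for counting error alone.

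A dividing cell passes from G1, in which it grows and may commit to division, through S phase, in which DNA and histones are made, to G2 and mitosis. E2F factors switch on the S phase genes, and the MuvB complex with B-MYB and FOXM1 switches on the G2 and M genes, many of which carry a cell cycle homology region (CHR) near their start. In cells that pause or leave the cycle the DREAM complex and the RB family shut both programmes, often after p53 has induced the inhibitor CDKN1A. A cell low in cycling transcripts can be in early G1, paused or arrested, and these states share much of their RNA.

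The score of the low-score cells ranged from 0 to 21.6 per 10000 UMIs, with a median of 12.7 and quartiles of 7.18 and 18.3, and 1 barcode had none of these UMIs. In the other cells it ranged from 21.7 to 107, with a median of 40.7. The 5 highest members lay at 21.2, 21.3, 21.5, 21.5 and 21.6, and the 5 lowest of the others at 21.7, 21.8, 21.9, 22.1 and 22.2, so no gap separates the groups and the 15% is a range of a continuous score, not a cell type. Within 10% of the cut lay 28 members and 30 others, and within 20% lay 49 and 67. The score genes themselves chose the cells and are given once as a description: MKI67, the proliferation antigen, stood at 113 CPM (UMIs of a gene scaled to the same total in each group) in the low-score cells and 758 in the others, and MCM6, a subunit of the replicative helicase, at 95.6 and 156 CPM.

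**Figure D1:**
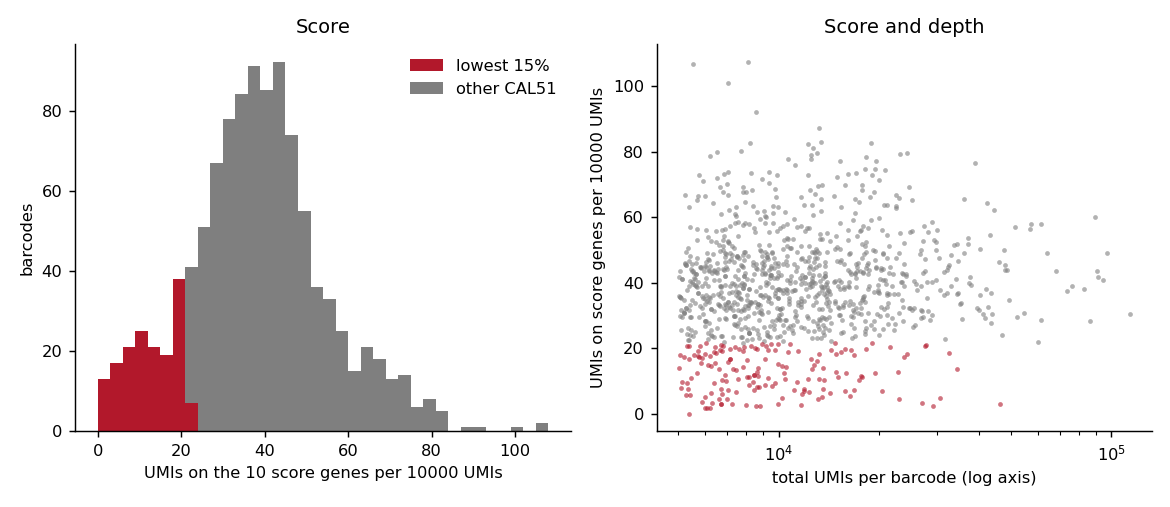
The left panel counts CAL51 barcodes by score, with the low-score cells in red stacked under the others in grey, and the right panel plots the score of each barcode against its total UMIs on a log axis. The members run from 0 to 21.6 per 10000 UMIs without a gap to the others, and they are more frequent among shallow barcodes.

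The low-score cells were shallower, with a median of 8584 UMIs against 10817.5. When the 1071 barcodes were cut into 5 bins of equal size by depth, 50 of 215 (23.3%) in the shallowest were members and 17 of 214 (7.94%) in the deepest. Thinned to 5000 UMIs, a member had a median of 2326 genes and another cell 2378.5 (3227 and 3745 without thinning). Mitochondrial transcripts took a median of 4.48% of a member's UMIs and 4.08% in the others, and cytosolic ribosomal protein transcripts 13.5% and 12.3%. The part of depth in the gene differences was not tested, but taking the lowest 15% within each depth bin kept 137 of the 161 members, and folds in the deeper and the shallower barcodes are given below for the leading genes.

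Markers of the 2 lines were used to describe the low-score cells. They were picked from earlier results of these data, so they do not test the label. All 8 CAL51 marker genes were above the count minimum, with a summed level of 11600 CPM against 9887 in the others, and a per-barcode range of 64.0 to 246 per 10000 UMIs against 40.5 to 265. GSTP1, a glutathione transferase abundant in this line, stood at 6138 and 5107 CPM. Of the 8 genes, 6 were higher in the low-score cells, beside 47.6% of all genes above the minimum. MSX1 was lower, at 702 against 780 CPM. The 9 MDAMB468 markers summed to 2 UMIs in the low-score cells and 6 in the others, with 8 of the 9 at 0 in the low-score cells. The 5 leukocyte markers in the files had 0 UMIs in the low-score cells (a level of up to 1.71 CPM is allowed by a count of 0) and 13 in the others, and the 5 endothelial markers had 1 and 7.

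The first groups described are the genes of S phase and of G2 and M phase, whose promoters carry short recurrent motifs. Of 43 G2 and M genes with a RefSeq promoter window (250 bases before to 50 after the start, build GRCh38.p14), 30 (69.8%) held a CHR, searched on both strands as TTTGAA or TTCGAA, against 11.9% of the 5313 counted genes with a window and 16.6% of all 27305 windows. Of 28 S phase genes, 10 (35.7%) held an E2F motif, searched on both strands as TTTCCCGC or TTTGGCGC, against 4.33% of counted genes and 2.31% of all windows. The following 200 bases upstream of a start overlap no annotated exon and are shown on the plus strand, which is also the strand of each gene, with the motif in capitals. KIF11, the motor that pushes the spindle poles apart, and CKS2, a small subunit of cyclin-dependent kinases, both carry a CHR, 28 and 29 bases before the start, and differ in how far they were below the other cells. HELLS, a chromatin remodeller, and POLA1, the catalytic subunit of the primase-associated polymerase, carry E2F motifs.
KIF11, chr10:92592930-92593129: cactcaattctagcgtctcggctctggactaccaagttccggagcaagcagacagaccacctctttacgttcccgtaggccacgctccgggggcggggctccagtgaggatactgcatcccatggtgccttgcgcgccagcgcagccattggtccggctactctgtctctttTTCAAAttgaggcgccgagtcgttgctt
CKS2, chr9:89310995-89311194: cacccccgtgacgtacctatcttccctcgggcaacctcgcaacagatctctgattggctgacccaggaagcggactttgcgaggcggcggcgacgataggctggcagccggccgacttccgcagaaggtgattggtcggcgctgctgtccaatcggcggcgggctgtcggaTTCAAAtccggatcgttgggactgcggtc
HELLS, chr10:94545588-94545787: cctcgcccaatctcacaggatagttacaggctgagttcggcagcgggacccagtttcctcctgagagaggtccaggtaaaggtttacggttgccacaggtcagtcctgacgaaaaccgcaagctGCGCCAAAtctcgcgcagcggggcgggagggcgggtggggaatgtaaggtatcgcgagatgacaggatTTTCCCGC
POLA1, chrX:24693718-24693917: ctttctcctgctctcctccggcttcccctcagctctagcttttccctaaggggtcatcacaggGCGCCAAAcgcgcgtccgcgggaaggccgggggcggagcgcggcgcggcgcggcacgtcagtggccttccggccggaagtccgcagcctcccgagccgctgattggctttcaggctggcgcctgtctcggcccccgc

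KIF11 stood at 63.2 CPM in the low-score cells and 218 CPM in the others, 3.44-fold lower (95% interval 2.85 to 4.20), whereas CKS2 stood at 371 and 436 CPM, 1.18-fold lower (1.09 to 1.28). HELLS was 1.49-fold lower (1.33 to 1.68; 180.5 against 269 CPM) and POLA1 1.81-fold lower (1.39 to 2.40; 34.2 against 61.9 CPM). Within the G2 and M list, the median log2 difference was -1.59 over the 30 genes with a CHR and -1.80 over the 13 without, so the match did not sort the genes of this list by the size of their difference. Over all counted genes, 120 of the 349 promoters of genes at least 1.5-fold lower held a CHR (34.4%), as did 14 of the 147 promoters of genes at least 1.5-fold higher (9.52%). A match is a run of letters in a window, not a measured binding site.

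Differences between the groups were computed for the 6482 genes with at least 20 CPM over all 1071 barcodes (counted genes, without the score genes) as the log2 ratio of CPM + 1. Of these, 432 (6.66%) were at least 1.5-fold lower in the low-score cells and 186 (2.87%) at least 1.5-fold higher. The median over counted genes was -0.02, with 47.6% above 0. The minimum is pooled, so a gene under 20 CPM in 1 group can be counted through its level in the other. Set against the 160 barcodes next above them in the score alone, 263 of 6500 genes (4.05%) were at least 1.5-fold higher and 375 (5.77%) at least 1.5-fold lower in the low-score cells. The cells were picked by cycling genes, and transcripts that rise and fall with those genes had to follow, so the lower genes below are described and support nothing beyond the choice.

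**Figure D2:**
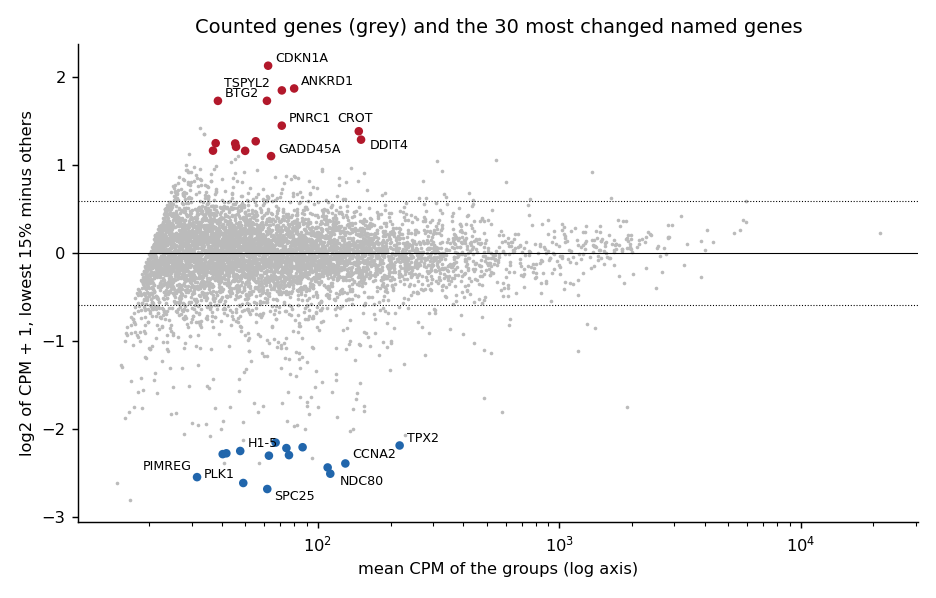
Each grey point is a counted gene, placed by the mean CPM of the 2 groups (log axis) and by its log2 difference, low-score cells minus others, with dotted lines at 1.5-fold. Red and blue points are the 15 highest and 15 lowest named genes, which reach from CDKN1A at 2.13 down to SPC25 at -2.68.

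Genes of G2 and mitosis were lower almost throughout. Of the 52 genes in the list, all counted, 47 were at least 1.5-fold lower (6.66% of all counted genes) and 0 higher (2.87%). The median log2 difference was -1.76, or -0.93 against the 160 barcodes next above. PLK1 (chr16:23677656-23690367, GENCODE 29 on GRCh38), the kinase that drives mitotic entry and spindle assembly, stood at 13.1 CPM against 85.1, 6.50-fold lower (4.31 to 10.3). AURKA, the centrosome kinase, stood at 33.6 against 186 CPM, and CCNA2, the cyclin of S and G2 phase, at 41.0 against 219. These levels leave a small remainder: at 5000 UMIs per barcode a CCNA2 molecule was found in 31 of 161 low-score cells (19.3%, exact interval 13.5 to 26.2) and in 566 of 910 others (62.2%), or in 28.6% and 82.9% without thinning. In MDAMB468, itself a dividing line, the share at 5000 UMIs was 29.3%, so no line without the gene is at hand to show the level of free RNA. Of the CCNA2 UMIs in the low-score cells, the 80 cells lowest in the score held 4 and the upper 81 held 68. The part of free RNA was not tested.

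Among the lowest genes were parts of the kinetochore, the protein assembly that ties chromosomes to the spindle. SPC25 stood at 15.9 against 108 CPM, 6.75-fold lower (4.65 to 10.2), and its partner in the same complex, NDC80, at 33.0 against 192, 5.82-fold lower. TPX2, which activates AURKA on the spindle, had 78.0 against 358 CPM. FOXM1, the factor that switches on this programme, had 28.5 against 72.5 CPM, a smaller difference of 2.55-fold. HMGB2, an abundant chromatin protein of dividing cells, had 256 against 901 CPM. TUBA1B, the main alpha-tubulin here, had 753 against 1627 CPM, while its near-identical paralog TUBA1A had 78.6 against 32.0 CPM, the opposite direction. How the counting divided reads between these paralogs is not stated, so both values are uncertain.

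S phase genes were lower by less. Of 38 listed genes, all counted, 26 were at least 1.5-fold lower (6.66% of all counted genes) and 0 higher (2.87%), with a median of -0.72. E2F8, an atypical E2F that represses transcription, was lowest at 14.8 against 43.9 CPM, and CDCA7, a chromatin factor of early S phase, stood level at 129.8 against 124 CPM (log2 0.07). Replication-dependent histones, which package new DNA, had a median close to that of the mitotic genes, -1.74. All 7 counted genes of 59 were at least 1.5-fold lower, beside the same 6.66% of all counted genes. H4C3 had 874 against 2938 CPM, H1-4 had 236 against 739.7 and H1-5 had 15.9 against 79.5. Most transcripts of these histones lack a poly(A) tail, so a poly(A)-primed library sees a part of them. H2AZ1, the replication-independent variant, had 952 against 1663 CPM.

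The depth of the S phase difference depended on which score genes were used. Choosing the lowest 15% by the 5 G2 and M score genes alone gave an S phase median of -0.26, and choosing by the 5 S phase score genes alone gave a G2 and M median of -0.22. The latter choice shared 89 of its 161 cells (55.3%) with the members described here, and the former 121 (75.2%). Each of these choices thus took in part other cells than the 10-gene score, which takes those low in the sum. The low-score cells had a median of 11 UMIs on the 10 score genes. The part of counting error in these overlaps was not tested.

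Across 6 bands of the score the 2 programmes differed in shape. The bands are ordered by the score, in which the G2 and M score genes weigh more. In the others MKI67, TOP2A, CDK1, CCNB1 and CENPF stood at 758, 709, 240, 334 and 812 CPM. The S phase score genes TYMS, RRM2, PCNA, MCM5 and MCM6 stood at 492, 342, 391, 60.5 and 156 CPM. The shapes of the 2 lists are thus a description and support nothing beyond that order. The G2 and M list rose with every band, from 4386 CPM in the low-score cells through 7337, 8588, 10151 and 12072 to 16271 CPM in the highest 15%. The S phase list stepped from 3393 CPM to 5630 CPM in the next band, stayed at 5777, 5376 and 5350, and ended at 4541. Levels of a list are sums over its genes, on the CPM scale. CCNE2, the cyclin of the G1 to S transition, peaked in the middle, at 21.6, 51.2, 57.1, 45.6, 34.9 and 17.9 CPM from the lowest band to the highest, so that its low level was shared by both ends. CKS2 followed neither pattern, with 371 CPM in the low-score cells, 299 in the band above and 602 in the highest.

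Cell cycle phases were called per barcode, thinned to 5000 UMIs, from the S and the G2 and M lists without the score genes. Of the low-score cells, 103 of 161 were called G1 (64.0%, exact interval 56.0 to 71.4), 26.7% S and 9.32% G2M. Of the others, 37 of 910 were called G1 (4.07%, 2.88 to 5.56), 33.0% S and 63.0% G2M. The 160 barcodes next above the members had 11.9% G1 calls and 51.3% S calls. These calls compare a cell with the others of the library, share their biology with the score, and were used as a description.

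The low-score cells were not uniform. Among the 80 lowest, with scores up to 12.5, 73 were called G1 (91.3%, 82.8 to 96.4), and among the upper 81, with scores from 12.7, 30 were (37.0%, 26.6 to 48.5), with 46.9% called S. The S phase list stood at 2132 CPM in the 80 lowest and 4659 CPM in the upper 81, and the G2 and M list at 3399 and 5377 CPM. Depth was close between these subsets, with medians of 8650.5 and 8480 UMIs. Histone transcripts summed to 914 CPM in the lower subset and 1903 in the upper. The subsets were cut by the score that chose the cells. Fewer cycling transcripts and more G1 calls in the lower subset had to follow, so these values are a description.

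Among counted genes the higher ones were fewer. With no minimum level 3011 genes were at least 1.5-fold higher and 1907 lower, but these 2 counts do not compare. A single UMI is 0.569 CPM in the low-score cells, so with the pseudocount of 1 CPM, 1 UMI against 0 counts as higher. In the others, which hold more UMIs, a single UMI does not reach the fold. The cyclin-dependent kinase inhibitor CDKN1A (p21; chr6:36676460-36687339) led the higher counted genes. It had 102 CPM in the low-score cells and 22.6 CPM in the others, 4.52-fold higher (3.73 to 5.45). Its UMIs were spread unevenly over cells: 122 of the 161 low-score cells had 0 CDKN1A UMIs, 13 had 1 and 26 had 2 or more, with a highest value of 24, against 798, 60 and 52 of the 910 others, with a highest of 15. Without the barcode that held the most, the fold was 3.98. In the deeper barcodes it was 4.57 and in the shallower ones 5.86. At 5000 UMIs a CDKN1A molecule was found in 29 low-score cells (18.0%, 12.4 to 24.8) and 57 others (6.26%, 4.78 to 8.04), and in 24.2% and 12.3% without thinning. In MDAMB468 the thinned share was 7.18% and the unthinned share 21.0%, at a median of 14697 UMIs.

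The high CDKN1A level lay in the lowest band. From there to the highest band it was 102, 25.4, 15.1, 24.5, 22.7 and 26.9 CPM, a step and then a flat line. Inside the low-score cells it was 5.37-fold higher in the 80 lowest than in the upper 81. The antiproliferative gene BTG2, a p53 target as well, had the same shape, at 59.8, 18.3, 17.7, 16.4, 16.4 and 18.3 CPM. TSPYL2, a nucleosome-assembly protein linked to growth arrest, had 112 CPM in the low-score cells, 47.6 in the next band and between 23.6 and 28.6 in the 4 bands above.

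**Figure D3:**
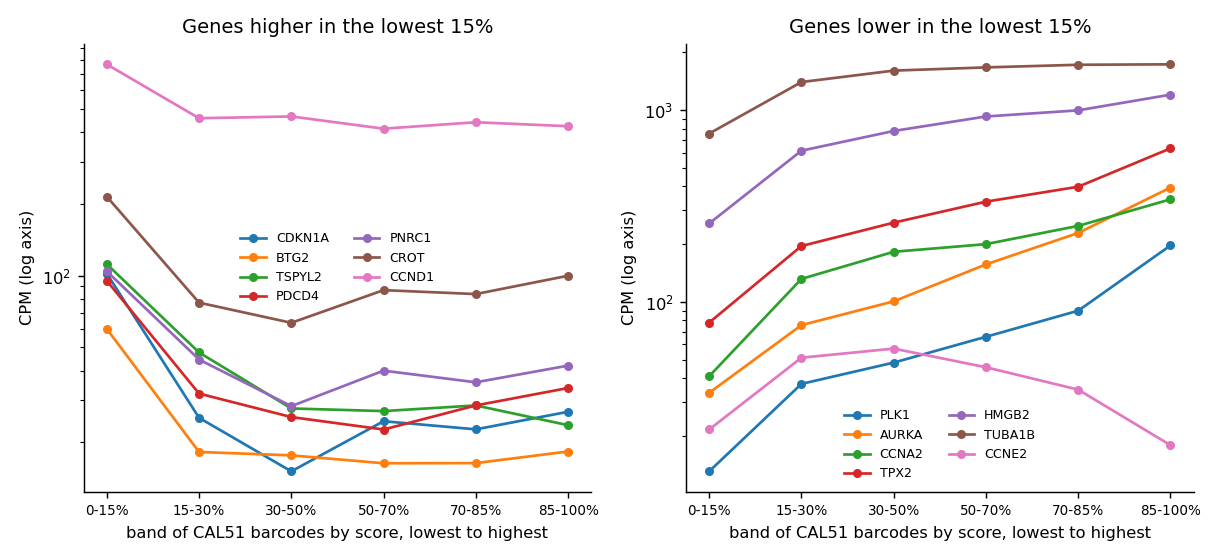
Lines give the CPM (log axis) of 7 genes higher and 7 genes lower in the low-score cells in 6 bands of CAL51 barcodes ordered by score. CDKN1A and BTG2 drop from 102 and 59.8 CPM after the lowest band and stay flat, PLK1 climbs from 13.1 to 197 CPM over all bands, and CCNE2 peaks at 57.1 CPM in the band from 30 to 50%.

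Of 24 genes listed for cell cycle exit, 11 were counted, 4 were at least 1.5-fold higher (CDKN1A, BTG2, TOB1 and CCNG2; 2.87% of all counted genes) and 1 lower (KLF6; 6.66%), with a median of 0.32 that ranged from 0.078 to 0.57 over the other settings tried. BTG2, at 17.4 CPM in the others, passed the 20 CPM minimum only through the low-score cells. TOB1, an antiproliferative partner of the BTG family, had 64.3 against 27.3 CPM, and CCNG2, an atypical cyclin made in resting cells, had 99.6 against 55.0. The direction of KLF6, a zinc-finger factor with 27.3 against 42.4 CPM, turned to 0.0091 on the log2 scale against those 160 barcodes alone. The other inhibitor often tied to rest, CDKN1B (p27), was not higher, at 105 against 122 CPM (log2 -0.22, with a sign that depended on the setting), and CDKN1C (p57) had 1 UMI in the low-score cells. The pocket proteins RB1 and RBL2, which hold E2F factors in check, differed within counting error. RB1 was at 82.0 against 77.6 CPM (0.88 to 1.26 as a ratio) and RBL2 at 47.8 against 38.2 CPM (0.98 to 1.58).

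Of 26 listed p53 targets, 14 were counted, 13 of them above 0, against 47.6% of all counted genes, and 3 were at least 1.5-fold higher (CDKN1A, BTG2 and FDXR), against 2.87%. Of these 3, BTG2 and FDXR were under 20 CPM in the others (17.4 and 19.7) and were counted only through the low-score cells. The median was 0.49, between 0.24 and 0.63 over the other settings tried. FDXR, a mitochondrial electron carrier, had 38.1 against 19.7 CPM. RPS27L, a ribosomal protein paralog induced by p53, had 881 against 603 CPM, MDM2, the ligase that limits p53, had 142 against 103, CCNG1 had 145 against 105, and the cell death effector BAX had 133 against 92.6. RRM2B, a ribonucleotide reductase subunit, was the member below 0, at 18.8 against 21.5 CPM, within counting error (0.59 to 1.25 as a ratio). In the lower 80 cells the list summed to 3152 CPM and in the upper 81 to 2179 CPM. Per barcode the list took a median of 20.9 UMIs per 10000 in the low-score cells (lowest 3.22, highest 86.3) and 17.1 in the others (2.70 to 68.1), so the distributions overlapped across nearly their whole range.

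Cells with a CDKN1A molecule were higher in the rest of the p53 list, and in other lists as well. Counts thinned to 5000 UMIs, with CDKN1A itself left out, gave 4028 CPM (3708 to 4368) in the 29 low-score cells with CDKN1A and 2176 CPM (2065 to 2291) in the 132 without. Among the others the values were 2730 CPM in the 57 with it and 1748 CPM in the 853 without. Inside the low-score cells the S phase list was at 2048 CPM with CDKN1A and 4018 CPM without, and in the others at 5674 and 5457 CPM. Of the CDKN1A UMIs in the low-score cells, the 80 lowest held 151 and the upper 81 held 28. The S phase list stood at 2132 and 4659 CPM in these subsets. The part of the score in the split by CDKN1A was not tested. The G2 and M list was at 3269 and 4833 CPM in the low-score cells and at 9218 and 10732 CPM in the others. The higher levels beside CDKN1A were not limited to p53 targets. In the low-score cells with and without it, the cell cycle exit list summed to 1338 and 888 CPM and the matrix list to 2745 and 2214 CPM. APOE with APOC1 summed to 1359 and 765 CPM there. The PTGDS group had 152 CPM (95.1 to 230, 22 UMIs) and 81.8 CPM (61.5 to 107, 54 UMIs), with overlapping intervals. In the others the matrix list was at 2281 and 1749 CPM and APOE with APOC1 at 789 and 658 CPM. The difference of these differences was not tested.

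**Figure D4:**
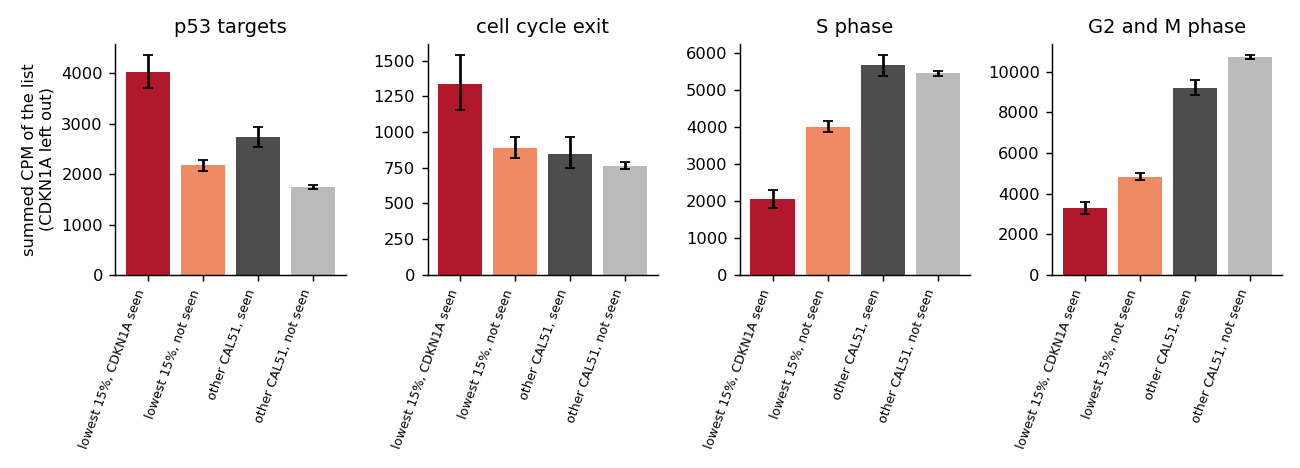
Bars give the summed CPM of 4 gene lists, from counts thinned to 5000 UMIs and without CDKN1A, in low-score cells and other CAL51 cells with and without a CDKN1A molecule, with 95% Poisson intervals for counting error. The p53 list is highest, at 4028 CPM, in the 29 low-score cells with CDKN1A, which are also lowest in S phase and in G2 and M genes.

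The remaining genes among the 15 highest had various roles. PDCD4, an inhibitor of translation initiation, had 95.1 against 28.0 CPM, 3.40-fold higher (2.81 to 4.08), with 3.55 in the deeper and 3.38 in the shallower barcodes. PNRC1, a nuclear receptor coactivator, had 104 against 37.6 CPM, DDIT4, the stress-induced inhibitor of mTORC1, 215 against 87.3, and GADD45A, a DNA damage and stress response gene, 87.7 against 40.4. CROT, a peroxisomal carnitine acyltransferase, had 214 against 81.5 CPM, and the peroxisomal enzyme catalase (CAT) had 51.2 against 22.3. KRT19, TNFAIP2 and IL18 were 2.42-, 2.44- and 2.27-fold higher. ANKRD1, a target of YAP, had 126 against 33.7 CPM, but 1 barcode held 38.0% of its UMIs in the low-score cells and the fold was 2.36 without it. Within the members ANKRD1 had 44 UMIs in the 80 lowest and 177 in the upper 81, which include that barcode. With that barcode kept, its level in the 80 lowest was 0.25 times that in the upper 81, a direction opposite to CDKN1A.

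G1 regulators split. Of 15 listed cyclins, kinases and E2F genes, 9 were counted, with a median of -0.17. Among them 1 was at least 1.5-fold higher (2.87% of all counted genes) and 2 lower (6.66%). CCND1 (chr11:69641087-69654474), the D-type cyclin that carries growth signals to CDK4 and CDK6, was the higher one, at 766 against 438 CPM, 1.75-fold (1.65 to 1.86), with 2.07 in the deeper and 1.30 in the shallower barcodes. Its partner CDK4 was at 297 against 332 CPM. The lower genes, CCNE2 and the pocket protein RBL1 (23.3 against 41.6 CPM), are E2F targets themselves. MYC was at 23.9 against 27.0 CPM, a difference within counting error (0.63 to 1.22 as a ratio).

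**Figure D5:**
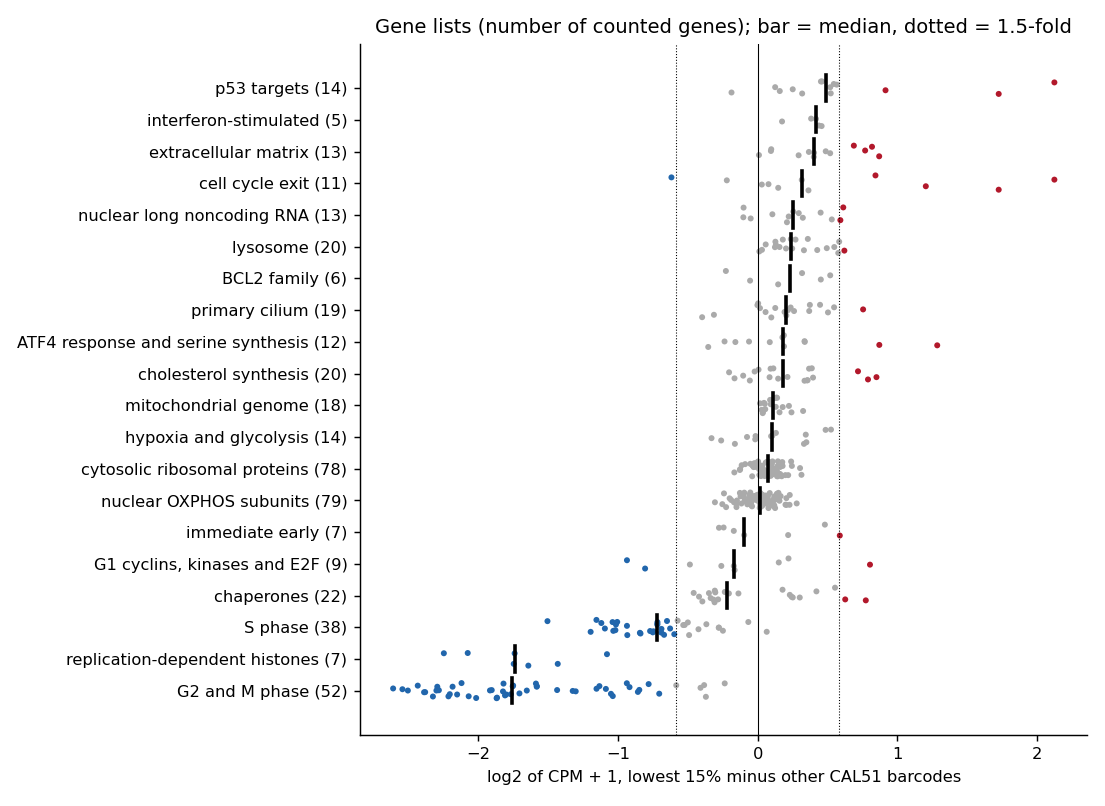
Each point is a counted gene of a list, placed by its log2 difference, low-score cells minus others; black bars are list medians and dotted lines mark 1.5-fold. The G2 and M, histone and S phase lists lie at medians of -1.76, -1.74 and -0.72, and the p53 and extracellular matrix lists at 0.49 and 0.40.

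Matrix and lysosomal genes were mostly above 0, beside 47.6% of all counted genes. All 13 counted matrix genes, of 29 listed, were above 0, with a median of 0.40, which was 0.14 against the 160 barcodes next above alone. Beside 2.87% of all counted genes, 4 of these 13 were at least 1.5-fold higher: TIMP1, a metalloproteinase inhibitor, at 95.6 against 51.8 CPM, and FBN1, COL18A1 and COL6A1, which build microfibrils, basement membrane and collagen VI. The basement membrane genes LAMC1 (221 against 158 CPM) and COL4A1 (224 against 169) were under that fold. All 20 counted lysosome genes, of 26 listed, were above 0 as well, with a median of 0.24 beside -0.02 over all counted genes, and PSAP, the precursor of the saposins that help degrade sphingolipids, was 1.54-fold higher (1.41 to 1.68), at 339.9 against 220.5 CPM. IGFBP7, a secreted binding protein, had 410.4 against 258 CPM and was the single one past 1.5-fold of 2 counted genes among 17 listed for the senescence-associated secretory phenotype. Interferon-stimulated genes had 5 counted of 24, all above 0 with a median of 0.42 and 0 past the fold. ISG15 among them rested on 1 barcode that held 36.3% of its UMIs, and stood at 0.89 times the others without it.

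The chaperone list, 22 counted of 24 with a median of -0.22, divided by compartment. Lower were 13 cytosolic or mitochondrial chaperones, such as HSP90AA1 (2172 against 2857 CPM), the chaperonin subunit CCT5 (354 against 474) and HSPD1 of the mitochondrial matrix (1855 against 2184), each by less than 1.5-fold. Higher were 8 chaperones and folding enzymes of the endoplasmic reticulum and HSPB1. HSPA5 (BiP), the master chaperone of that compartment, had 1994 against 1290 CPM, HSP90B1 had 3671 against 2740, and DNAJB9, a co-chaperone, had 32.4 against 18.5. DNAJB9, under 20 CPM in the others, was counted only through the low-score cells. This division was read from the values after they were seen. Of the 22 genes, 9 were above 0, beside 47.6% of all counted genes. In the ATF4 list 12 of 23 genes were counted, with a median of 0.18 (-0.0070 against the 160 barcodes next above). DDIT4 and DDIT3 (104 against 56.2 CPM), a stress transcription factor, were at least 1.5-fold higher, beside 2.87% of all counted genes. ATF4 itself was at 237 against 265 CPM and PHGDH of serine synthesis at 121 against 143 CPM.

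Cholesterol synthesis had 20 counted genes of 22 and a median of 0.18. STARD4, a sterol carrier, had 41.0 against 22.3 CPM, TM7SF2, a sterol reductase, 92.2 against 52.9, and HSD17B7 33.0 against 19.7. These were the 3 genes at least 1.5-fold higher, beside 2.87% of all counted genes. HSD17B7, under 20 CPM in the others, was counted only through the low-score cells. Of 19 counted primary cilium genes, 16 were above 0 (47.6% of all counted genes were), with a median of 0.21. IFT27 alone was at least 1.5-fold higher, a share near the 2.87% of all counted genes, at 31.9 against 18.5 CPM, though not in the shallower barcodes (0.89-fold). With 18.5 CPM in the others, IFT27 was counted only through the low-score cells. The lists for hypoxia and glycolysis (14 counted, median 0.10), immediate early genes (7, -0.10, or 0.20 against the 160 next above), the BCL2 family (6, 0.23), nuclear-encoded respiratory subunits (79, 0.02), cytosolic ribosomal proteins (78, 0.07) and the mitochondrial genome (18, 0.11) held 0 genes past 1.5-fold apart from JUN, an immediate early gene, at 31.3 against 20.5 CPM. Over all counted genes 2.87% were at least 1.5-fold higher and 6.66% lower.

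Nuclear long noncoding RNAs had 13 counted genes and a median of 0.26. NEAT1 (157 against 102 CPM) and MALAT1 (7135 against 4729) were at least 1.5-fold higher, beside 2.87% of all counted genes. MALAT1 was high at both ends of the score: 7135 CPM in the low-score cells, 3873 in the next band, then 4215, 4798 and 4888, and 5934 CPM in the highest 15%. Inside the low-score cells it was 1.68-fold higher in the 80 lowest than in the upper 81. The list summed to 9580 CPM in the low-score cells and 6719 CPM in the others. This level and the mitochondrial share of 4.48% against 4.08% move with these cells, and their part in the differences was not tested.

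Genes that mark other cell states of this line gave mixed values in the low-score cells. APOE and APOC1 summed to 879.5 CPM in the low-score cells and 704 in the others, with per-barcode medians of 4.15 and 4.04 per 10000 UMIs. COL2A1 was level at 55.8 and 55.4 CPM, while COL3A1 had 14.2 against 2.98 CPM, 4.78-fold higher (2.78 to 8.07). That fold rested on 25 UMIs, 28.0% of them in 1 barcode, and was 1.38 in the deeper and 22.1 in the shallower barcodes. ADAMTS8 had 14.8 against 6.03 CPM, 2.45-fold higher (1.51 to 3.86), on 26 UMIs, and PTGDS had 21.6 against 15.6 CPM, within counting error (0.95 to 1.96 as a ratio). COL3A1, ADAMTS8 and PTGDS were under the minimum for counted genes.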

How the data were processed

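The values are UMI counts, deposited by the authors as a matrix of whole numbers without normalisation, per the file headers. STARsolo is named in the submitters' processing notes, and no source used here states the genome build, annotation, strand setting or barcode selection. The deposited names assign 306 barcodes to MDAMB468 and 1377 to CAL51, for 30796 genes, and the lowest total is 2501 UMIs. The low-score cells hold 1756623 UMIs and the others 13429138. No doublet caller was run and no doublet was removed.

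UMIs were summed per group and scaled to CPM. Genes with at least 20 CPM pooled are counted, a pseudocount of 1 CPM was added, and a gene at 0 is bounded by 3 counts over the group. Intervals are exact (Poisson for levels, conditional binomial for ratios, Clopper-Pearson for shares), at 95%, and cover counting error only. No test across samples was possible for 1 library. Thinning drew 5000 UMIs per barcode without replacement. Phases were called with scanpy 1.11.5. The interval code was tested on simulated data. Sums and intervals used scipy 1.17.1, numpy 2.4.6 and pandas 2.3.3 under Python 3.11.15, and figures matplotlib 3.10.9.

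Gene identifiers were named from a supplied table, positions are those of GENCODE 29 on GRCh38 matched by identifier, and promoters are from RefSeq, which held a window for 5313 of 6482 counted genes. The cells, the 21 gene lists and the markers were chosen with earlier results of these data known. Named genes are the 15 highest and 15 lowest ratios among counted genes with at least 50 CPM in the higher group that kept their sign in all 20 alternatives, without score, mitochondrial, ribosomal protein, antisense and unnamed genes, plus fixed genes and the extremes of each list. Other genes in the text were picked after their values were seen, as examples from the lists. The alternatives changed the share taken, the UMI minimum, the score, the scaling, the weighting, the pseudocount, the count minimum and the comparison cells. Values of some genes are not reported here.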

Additional observations from a re-analysis of the deposited data

How the results depend on the processing

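With 1 library per line no replicate could be left out, and no paired analysis was possible because the labels give no shared replicate numbers. The count of genes at least 1.5-fold higher was 353 for the lowest 10% of cells, 99 for the lowest 20%, 107 with a pseudocount of 10 CPM, 62 among genes at 50 CPM and 3011 with no minimum, and the count of lower genes was 697, 242 and 1907 for the lowest 10%, at 50 CPM and with no minimum. With no minimum, 1 UMI in the low-score cells against 0 in the others counts as higher, so 3011 and 1907 do not compare. The S phase median was -1.12 for the lowest 10%, -0.44 for the lowest 20%, -0.54 at 10000 UMIs or more, -0.49 for a thinned score, -1.08 by S phase score genes, -0.26 by G2 and M score genes and -0.60 with a pseudocount of 10 CPM. The G2 and M median was -2.17 for the lowest 10%, -0.22 by S phase score genes and -0.93 against the next 15%. The share called G1 was 82.2% for the lowest 10%, 52.8% for the lowest 20%, 52.4% at 10000 UMIs or more, 49.7% by S phase score genes and 53.4% by G2 and M score genes. The p53 median ranged from 0.24 (S phase score genes) to 0.63 (lowest 10%) and the cell cycle exit median from 0.078 (genes at 50 CPM) to 0.57 (lowest 10%), above 0 in all 20 alternatives. The 15 highest and 15 lowest named genes were picked for keeping their sign, so their stability is not counted. CCND2, at 2 UMIs, reversed to -0.59 at 10000 UMIs or more, and KLF6 reversed to 0.0886 by S phase score genes and 0.00909 against the next 15%. Causes were not tested. Depth limits what single cells show: at a median of 8584 UMIs, a 0 for a gene in a cell does not show that the gene is silent there.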

Other observations

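Genes outside the lists were also higher in the low-score cells, picked after their values were seen. The calcium-binding proteins S100A6 and S100A4 had 1788 against 944 CPM and 431 against 225 CPM, 1.89-fold (1.82 to 1.97) and 1.92-fold (1.77 to 2.08) higher. S100A6 had 1028 CPM in the next band and 894 in the highest 15%, a step like that of CDKN1A. The tetraspanin-like surface protein TM4SF1 had 202 against 107 CPM, with 101 in the next band and 119 in the highest. CD24, a surface glycoprotein, was graded instead: 420.1 CPM in the low-score cells, 328 in the next band, 178 in the band from 50 to 70% and 112 in the highest. The simple keratins KRT18 and KRT8 were graded as well, with KRT18 at 1975, 1912, 1496 and 1119 CPM in the same bands, so that the low-score cells and the band above were nearly level, and the sign of KRT8 (1141 against 907 CPM) turned to -0.046 on the log2 scale against the next band alone.

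Further single genes were higher: DRAM1, a p53-induced lysosomal regulator, had 49.0 against 18.5 CPM, 2.64-fold (2.04 to 3.39), GABARAPL1, an autophagosome protein, 40.4 against 18.0, and the cargo receptor OPTN 137 against 71.4. SLFN12, of the Schlafen family, had 49.0 against 18.5 CPM. DRAM1, GABARAPL1 and SLFN12, under 20 CPM in the others, passed the minimum only through the low-score cells.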
